A study of Mus musculus with 22 samples.

Results

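A small set of 29 regions of the mouse genome lost DNA methylation between E14.5 and E18.5 in wild-type fetal liver by a margin wider than the spread of the replicates. They are 1 kb tiles of chromosomes 1 to 19, chosen by their methylation level in the wild-type livers. A tile had to hold at least 8 CpGs covered by 6 or more reads in all 12 libraries of whole-genome bisulphite sequencing, and 574594 tiles did. Its methylation level is the percent of reads with an unconverted cytosine, summed over its CpGs. A tile was kept where the lower of the 2 wild-type E14.5 livers exceeded the higher of the 2 wild-type E18.5 livers by at least 20 points, and 29 of the 574594 tiles were. The reverse rule, a gain of at least 20 points, was met by 247 tiles.

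The libraries came from wild-type (Rlf+/+) and homozygous mutant (MommeD28/MommeD28) mice, with 2 embryos at E10.5 and 2 livers at each of E14.5 and E18.5 for each genotype. The allele was induced by ENU and is described as null for Rlf, which encodes a zinc finger protein, and both genotypes are of the inbred FVB/NJ background and carry the same multi-copy GFP transgene. The E10.5 embryos were labelled male and the E18.5 livers female, while each genotype at E14.5 had 1 male and 1 female liver. Sex and stage can thus only be told apart in part, and not at all between E10.5 and E18.5. RNA-seq was from 3 wild-type and 3 mutant E14.5 livers, replicates 1 and 2 male and replicate 3 female, and the H3K4me1 libraries were not analysed here.

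CpG methylation is copied onto newly made DNA by the maintenance methyltransferase Dnmt1 and is lost either passively, when copying fails, or actively through oxidation by Tet enzymes. Most CpGs of a mammalian genome outside CpG islands are methylated, and local dips in this level are found at promoters and enhancers. The fetal liver at E14.5 is the main site of blood formation and is rich in erythroid precursors, whereas by birth hepatocytes make up most of the organ. Each level below is an average over all cells of a liver or an embryo, so a change within cells and a change in the mix of cells cannot be told apart.

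Depth was 17.2 to 19.4 reads per covered autosomal CpG in the embryos, 32.2 to 36.1 in the E14.5 livers and 17.78 to 18.47 in the E18.5 livers. Each tile held 96 to 1461 reads in a library. Of the reads on unmethylated lambda DNA, 0.0412% to 0.0775% were unconverted. Over all eligible tiles the median level was 85.0% to 86.6% in the 4 embryos, 64.9% to 69.1% in the 4 E14.5 livers and 71.8% to 76.6% in the 4 E18.5 livers, and mutant E18.5 replicate 1, at 76.6%, was the highest of the livers. The eligible tiles as a whole therefore moved the other way to the 29 tiles. Their median change from E14.5 to E18.5 was a gain of 4.62 points in wild type and 4.94 points in mutants. The mutant gain was 3.07 points without E18.5 replicate 1 and 6.72 points without E18.5 replicate 2.

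The reference sequence of the 6 tiles with the widest gap (1 per 100 kb) is shown, since these lay farthest inside the limit of the rule. Each run is the 300 bases of the tile that hold the most CpGs, outside UTRs, on the plus strand of mm9 (NCBIM37), with the CpGs in capitals. The FVB/NJ substitutions that the authors put into their genome are not in it. The runs are given in the order of the gap. The runs of Arid4a, Vps13d, Ide, Arid3a and Lrpprc lie in introns of these genes, and that of 2810055G20Rik ends just before the annotated gene.
Arid4a, chr12:72149001-72149300: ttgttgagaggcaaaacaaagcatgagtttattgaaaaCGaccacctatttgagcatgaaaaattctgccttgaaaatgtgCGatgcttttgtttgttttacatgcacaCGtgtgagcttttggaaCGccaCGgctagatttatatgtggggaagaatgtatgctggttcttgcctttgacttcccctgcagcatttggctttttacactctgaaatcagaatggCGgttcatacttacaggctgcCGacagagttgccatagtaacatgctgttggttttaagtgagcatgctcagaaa
Vps13d, chr4:144590001-144590300: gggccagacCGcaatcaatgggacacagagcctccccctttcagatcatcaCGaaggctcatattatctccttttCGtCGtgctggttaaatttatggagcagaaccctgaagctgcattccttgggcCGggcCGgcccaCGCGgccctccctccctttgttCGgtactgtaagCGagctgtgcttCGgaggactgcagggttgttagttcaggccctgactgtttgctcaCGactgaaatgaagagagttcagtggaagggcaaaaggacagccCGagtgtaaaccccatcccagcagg
Ide, chr19:37365401-37365700: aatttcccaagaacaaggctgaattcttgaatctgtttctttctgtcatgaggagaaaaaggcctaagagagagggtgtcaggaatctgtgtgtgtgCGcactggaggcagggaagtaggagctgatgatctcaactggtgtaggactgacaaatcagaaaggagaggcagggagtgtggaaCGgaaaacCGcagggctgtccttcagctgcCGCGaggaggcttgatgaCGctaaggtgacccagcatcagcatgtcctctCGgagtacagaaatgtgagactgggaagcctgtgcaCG
Arid3a, chr10:79399683-79399982: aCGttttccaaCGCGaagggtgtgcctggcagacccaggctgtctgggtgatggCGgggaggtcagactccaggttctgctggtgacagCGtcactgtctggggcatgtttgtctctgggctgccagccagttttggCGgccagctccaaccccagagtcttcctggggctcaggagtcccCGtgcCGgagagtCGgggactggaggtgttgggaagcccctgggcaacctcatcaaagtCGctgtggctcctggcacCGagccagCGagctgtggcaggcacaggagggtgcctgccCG
Lrpprc, chr17:85132113-85132412: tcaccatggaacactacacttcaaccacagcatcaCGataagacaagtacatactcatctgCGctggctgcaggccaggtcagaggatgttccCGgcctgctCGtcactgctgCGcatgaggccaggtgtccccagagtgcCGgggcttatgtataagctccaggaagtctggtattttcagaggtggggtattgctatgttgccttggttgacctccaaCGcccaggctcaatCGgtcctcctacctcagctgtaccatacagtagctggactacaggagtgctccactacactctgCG
2810055G20Rik, chr16:77329194-77329493: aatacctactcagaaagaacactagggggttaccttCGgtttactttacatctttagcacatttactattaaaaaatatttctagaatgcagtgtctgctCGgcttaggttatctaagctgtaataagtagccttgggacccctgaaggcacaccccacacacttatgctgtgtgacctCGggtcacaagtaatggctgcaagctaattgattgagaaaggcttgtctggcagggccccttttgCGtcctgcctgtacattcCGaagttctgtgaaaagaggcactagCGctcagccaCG
These windows held 7, 13, 8, 13, 9 and 7 CpGs, in that order, and their GC content ran from 42.0% to 64.7%.

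The wild-type livers that chose the tiles are given first, as a description. In the median tile the mean level of wild type fell by 26.7 points, and the falls ran from 22.0 to 36.9 points. At E14.5 the tiles averaged 58.6% and 59.3% in the 2 wild-type livers, and at E18.5 they averaged 32.2% and 30.3%. The level at E14.5 was intermediate in most: the lowest library value was 36.9%, in the tile at the start of 2810055G20Rik, and the highest 84.8%, in the Lrpprc tile. At the 20-point limit, the last 3 tiles kept were those of Foxo3 (20.1 points), the tile nearest Sod1 (20.1 points) and the Irgm1 tile (20.8 points), and the first 3 left out lay in Ptbp1 (19.8 points), nearest to Myc (19.8 points) and in Samhd1 (19.6 points).

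The widest gap was in the tile at chr12:72149001-72150000, over an annotated start inside Arid4a, which encodes a chromatin protein that binds the retinoblastoma protein. The centre of this tile is 172 bases from the start of a shorter annotated transcript of the gene, and the tile overlaps a UTR. Its level was 66.4% and 66.4% in the wild-type E14.5 livers and 30% and 28.9% in the wild-type E18.5 livers. The embryos of both genotypes stood between 60.4% and 66.2%, close to the E14.5 livers, and the E18.5 livers alone were low.

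A pair of neighbouring tiles met the rule in an intron of Vps13d, which encodes a lipid transfer protein that acts on mitochondria. The tile at chr4:144589001-144590000 stood at 45.1% and 48.7% in the wild-type E14.5 livers and at 12.8% and 12.7% in those of E18.5. The next tile, at chr4:144590001-144591000, stood at 57.7% and 54.4% and then at 21.4% and 19.5%. The other pair of neighbours lay in an intron of Arid3a, which encodes a DNA-binding protein of the ARID family known from B cells. The tile at chr10:79399001-79400000 fell from 56.2% and 61.7% to 22.2% and 26.1%, and the tile at chr10:79400001-79401000 from 57.0% and 56.4% to 31.7% and 34.1%. With each pair counted once, the tiles mark 27 places in all.

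Among the other named tiles, 4 that lay in genes are given here. The Ide tile, chr19:37365001-37366000, overlaps coding sequence of the insulin-degrading enzyme, and its wild-type livers stood at 70.5% and 76.0% and then at 40.3% and 37.6%. The tile in an intron of Txnrd1, the cytosolic thioredoxin reductase, at chr10:82352001-82353000, stood at 70.5% and 60.7% and then at 27.7% and 34.9%. The tile in an intron of Eif2c2, which encodes Argonaute 2, at chr15:72985001-72986000, stood at 47.4% and 47.0% and then at 22.0% and 21.9%. The Anks1 tile, chr17:28145001-28146000, overlaps coding sequence of an ankyrin repeat adaptor and stood at 44.3% and 50.2% and then at 19.5% and 17.4%.

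**Figure D1:**
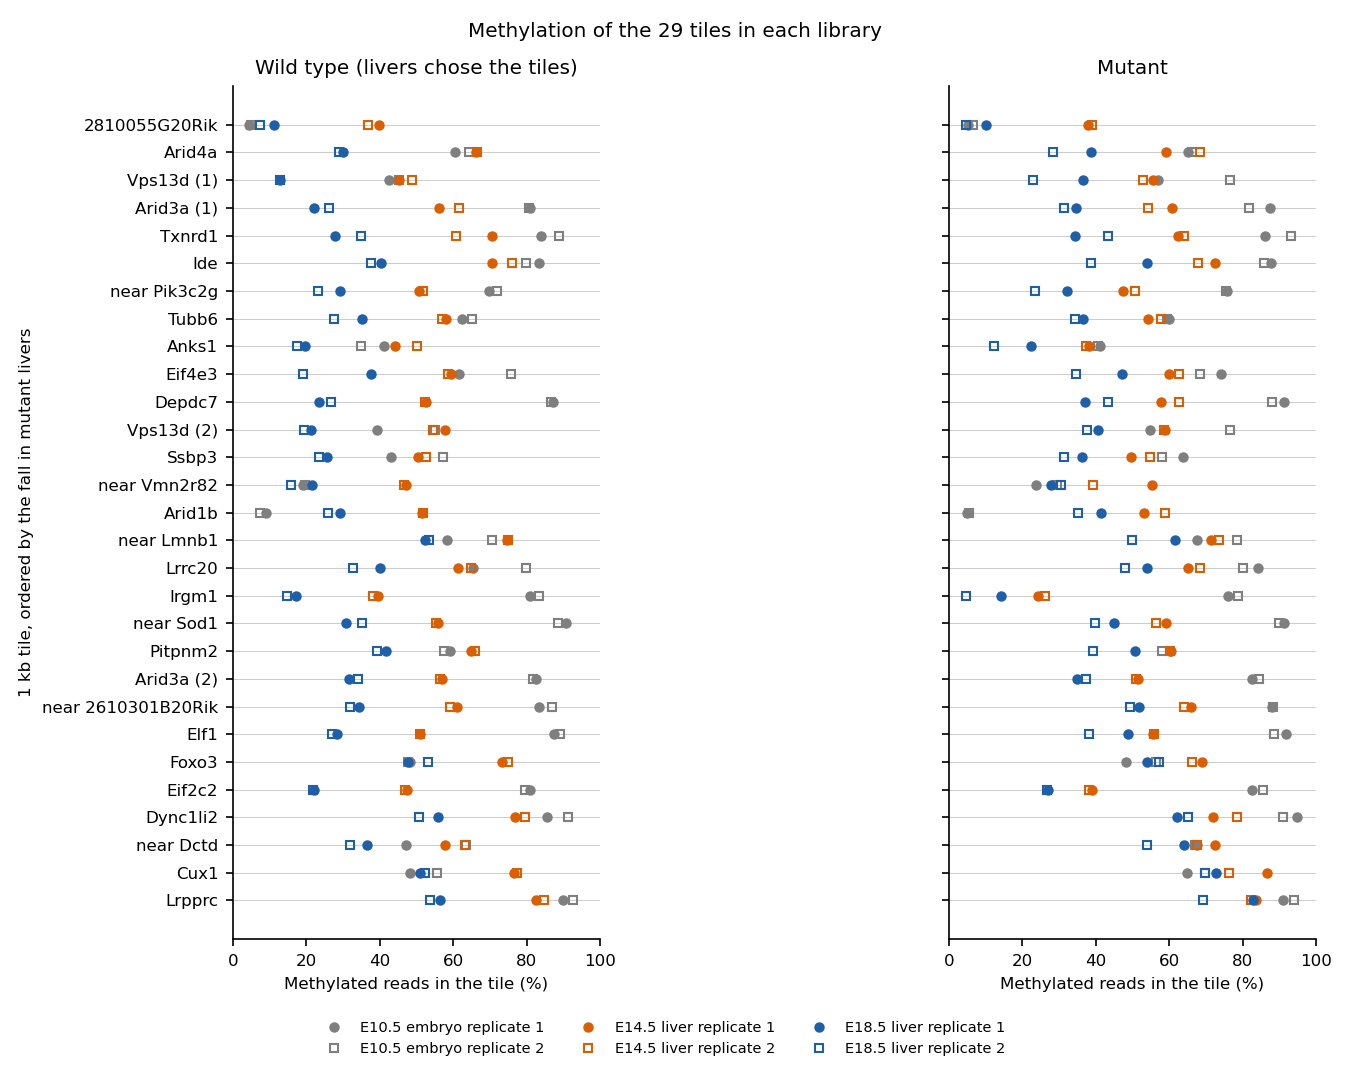
Methylation level (percent of reads, x axis) of the 29 tiles (rows, named by the gene that holds the tile or has the nearest start) in the 6 wild-type libraries (left) and 6 mutant libraries (right), with colour for stage and filled or open marks for replicates 1 and 2. The mutant E18.5 livers lay below the mutant E14.5 livers in 28 of the 29 tiles, and the embryos spread from 4.40% to 94.7%.

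Whether these regions also lost methylation in livers that had no part in choosing them was examined in the mutants. The mutant E14.5 livers were littermates of the wild-type E14.5 livers. The paper describes the E10.5 and E18.5 sequencing as a repeat of that at E14.5. Round of sequencing and stage may therefore not be separable in either genotype. All 29 tiles had a lower mean in the mutant E18.5 livers than in the mutant E14.5 livers, with a median fall of 17.7 points and a range from 6.90 to 30.9 points. Both mutant E18.5 livers lay below both mutant E14.5 livers in 28 of the 29 tiles, against 4.35% of all eligible tiles. By edgeR's quasi-likelihood test on methylated and unmethylated counts (adjusted p under 0.05 over all tiles and a difference above 15 points), 20 of the 29 tiles fell and none rose. Over all 574594 tiles 0.0428% were called lower and 1.44% higher. Leaving out mutant E14.5 replicate 1 or replicate 2, which leaves 1 liver at that stage, lowered the 20 calls to 8 in either case, with median falls of 17.8 and 15.7 points. Without mutant E18.5 replicate 1, whose level was high over the whole genome, 17 tiles were called and the median fall was 20.7 points, and without mutant E18.5 replicate 2 these were 14 tiles and 14.6 points. Over all tiles the 246 lower calls became 50 and 48 without an E14.5 replicate, and 338 and 323 without an E18.5 replicate, so that calls were lost over the genome as well in the first case and not in the second.

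The largest mutant fall was at the start of 2810055G20Rik, a gene of unassigned function, in the tile at chr16:77329001-77330000. Its mutant livers stood at 37.8% and 39.0% at E14.5 and at 10.2% and 4.77% at E18.5, a fall of 30.9 points (edgeR, adjusted p = 5.99e-10). In the Arid4a tile the mutant livers stood at 59.0% and 68.3% and then at 38.8% and 28.3%, a fall of 30.1 points (edgeR, adjusted p = 1.62e-05). The stages did not overlap in either tile, and at the start of 2810055G20Rik the mutant fall was no smaller than the wild-type fall of 29.1 points. In the other 28 tiles the mutant mean fell by less than the wild-type mean, and nothing is read from this, since the wild-type livers chose the tiles.

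In all, 11 tiles were called lower in mutants by more than 20 points, against 0.0094% of all tiles, and 6 more of them follow. In the first Vps13d tile the mutants stood at 55.5% and 52.9% and then at 36.6% and 22.8% (edgeR, adjusted p = 0.00199). In the first Arid3a tile they stood at 60.7% and 54.2% and then at 34.7% and 31.2% (edgeR, adjusted p = 0.000129). The Txnrd1 tile went from 62.4% and 64.0% to 34.3% and 43.2% (edgeR, adjusted p = 0.00186). These 3 tiles fell by 24.4 to 24.5 points each. The Ide tile went from 72.5% and 67.8% to 54.0% and 38.8% (edgeR, adjusted p = 0.00139), with a wide gap between its E18.5 livers.

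The Anks1 tile went from 38.1% and 37.2% to 22.4% and 12.3% (edgeR, adjusted p = 0.000151). In the tile nearest Pik3c2g, a phosphoinositide 3-kinase gene of the liver, it was 47.3% and 50.6% and then 32.2% and 23.4% (edgeR, adjusted p = 0.00304).

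The other 9 tiles were not called in mutants, and all 9 still had a lower mean at E18.5. Of these, 5 passed the adjusted p and missed the limit of 15 points: the second Arid3a tile, at a fall of 14.97 points, the tile nearest 2610301B20Rik, Foxo3, Eif2c2 and Cux1, with falls of 10.1 to 14.4 points in the last 4. The Cux1 value rested on the mutant E14.5 livers: its difference was -4.96 points without replicate 1 (edgeR, adjusted p = 0.488) and -15.3 points, past the limit, without replicate 2. The tile in an intron of Foxo3, a forkhead transcription factor, stood at 68.8% and 66.2% and then at 53.9% and 57.3% (edgeR, adjusted p = 0.0465). The Lrpprc tile, in an intron of a gene for a mitochondrial RNA-binding protein, had the smallest fall. It stood at 83.5% and 82.3% in the mutant E14.5 livers and at 83.0% and 69.1% in the mutant E18.5 livers, a difference of -6.90 points (edgeR, adjusted p = 0.172). Only this tile had overlapping mutant stages, and without mutant E18.5 replicate 2 its difference was 0.0311 points.

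**Figure D2:**
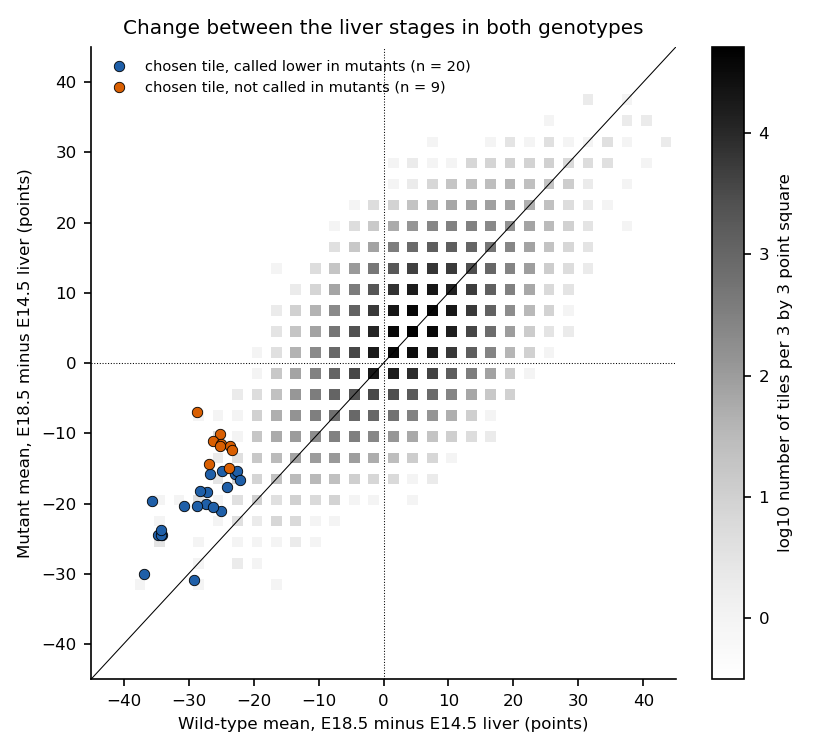
Change in mean level from E14.5 to E18.5 liver in wild type (x axis, points) and in mutants (y axis, points), with all 574594 tiles as grey squares shaded by their number on a log10 scale and the 29 chosen tiles as points, blue where called lower in mutants (20) and orange where not (9). The wild-type axis chose the tiles, all 29 lie below 0 on the mutant axis, and 28 lie above the diagonal of equal change.

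The levels of mutant and wild type at one liver stage rest on the livers that chose the tiles and are given with no test. At E14.5 the mutant mean was below the wild-type mean in 15 of the 29 tiles, against 26.2% of all, with a median difference of -0.72 points. Both mutants lay above both wild types in 10 tiles (34.2% of all eligible tiles did) and below in 8 (6.5% of all). At E18.5 the mutants had the lower mean in 3 tiles, against 27.7% of all, with a median difference of 9.34 points, and both mutants lay above both wild types in 18 (31.2% of all). The widest differences at E18.5 were in the tile nearest Dctd, where mutants stood at 64.0% and 54.1% and wild types at 36.6% and 31.9%, and in the Lrpprc and Cux1 tiles, with mutant means 21.01 and 19.7 points higher. The Irgm1 tile, in an intron of an interferon-induced GTPase gene, had the lower mutant mean at both stages, as had the Anks1 tile. In the Irgm1 tile the mutants stood at 24.1% and 26.2% against 39.4% and 38.0% at E14.5, and at 14.3% and 4.51% against 17.2% and 14.6% at E18.5.

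Where the tiles stood before the liver stages was compared in the mutants, which again had no part in the choice. Embryo and liver differ in tissue as well as in stage, and the 2 cannot be told apart. Between the embryos, labelled male, and the E18.5 livers, labelled female, sex cannot be told apart from these either. Against the mutant E10.5 embryos, the mutant E14.5 livers were called lower in 13 of the 29 tiles and higher in 4 (edgeR, same call). Over all eligible tiles 50.9% were called lower and 1.14% higher. The share of the 29 called lower was thus close to that of all eligible tiles, and nothing about the 29 is read from it. The mutant E18.5 livers were called lower than the embryos in 22 tiles and higher in 1, against 22.7% and 1.54% of all tiles. The rule favours low wild-type levels at E18.5, and the mutant livers fell in these tiles too. The 22 calls are therefore not read as a separate result. These comparisons share the liver or embryo libraries with each other.

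The 13 tiles called lower at E14.5 are grouped by that call, so their order of levels is a description. Their mutant embryos had means of 75.6% to 92.9% with a median of 86.9%, against a median of 86.6% over all tiles, their E14.5 livers 25.2% to 75.2% and their E18.5 livers 9.40% to 63.7%, and 8 of the 13 were also called lower between the liver stages. The Eif2c2 tile stood at 82.6% and 85.6% in the mutant embryos, at 39.0% and 38.1% in the E14.5 livers and at 26.9% and 26.6% in the E18.5 livers. The Irgm1 tile had the largest first step, from 76.0% and 78.8% to 24.1% and 26.2% (edgeR, adjusted p = 2.06e-12). The Elf1 tile, in an intron of a gene for an ETS factor of blood cells and 1007 bases from a start, went from 92.0% and 88.6% to 55.6% and 55.9% and then to 48.7% and 38.0%. The Depdc7 tile went from 91.3% and 88.0% to 57.7% and 62.7% and then to 37.0% and 43.3%. In the Elf1 tile the fall between the mutant livers rested on the late livers: the difference was -12.4 points, and it was -17.7 points without mutant E18.5 replicate 1, when the tile was called, and -7.03 points without replicate 2.

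The opposite path was taken by 4 tiles in the mutants, from a lower embryo level to a higher level in E14.5 liver, and 3 of them were then called lower at E18.5. The tile at the start of 2810055G20Rik was nearly free of methylation in the embryos, at 4.40% and 5.02% in wild type and 5.09% and 6.63% in mutants. It stood at 36.9% to 39.7% in the 4 E14.5 livers and at 4.77% to 11.1% in the 4 E18.5 livers, so that the late livers were back near the embryos, with a difference of 1.60 points between mutant E18.5 liver and embryo (edgeR, adjusted p = 0.368). The tile in an intron of Arid1b, a subunit of the BAF chromatin remodelling complex, at chr17:5058001-5059000, stood at 5.0% and 5.37% in the mutant embryos. In the mutant livers it stood at 53.1% and 58.8% at E14.5 and at 41.3% and 35.2% at E18.5, and it was the sole tile called higher at E18.5 than in the embryo (33.1 points, edgeR, adjusted p = 4.54e-10).

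The tile nearest Vmn2r82, a vomeronasal receptor gene, stood at 23.7% and 29.6% in the mutant embryos, at 55.3% and 39.4% at E14.5 and at 27.7% and 30.6% at E18.5. Its difference between the mutant livers, -18.2 points, was -10.2 points and not called without mutant E14.5 replicate 1. The Foxo3 tile stood at 48.2% and 56.4% in the mutant embryos and was called higher at E14.5 by 15.2 points (edgeR, adjusted p = 0.000348). Without mutant E14.5 replicate 1, 2 tiles were called higher. The remaining 12 tiles, among them Arid4a, both Vps13d tiles, Anks1 and Tubb6, were not called either way between embryo and E14.5 liver, and 9 of the 12 were called lower between the liver stages.

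**Figure D3:**
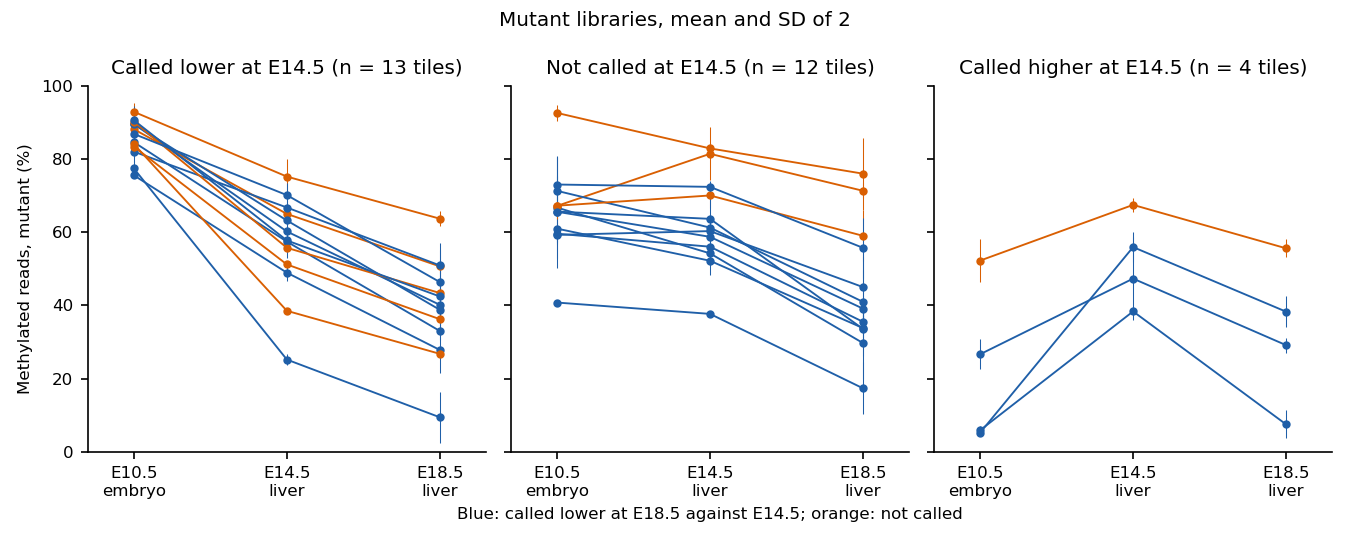
Methylation level (percent, y axis) of each tile in the mutants (embryos, then both liver stages) as the mean with the SD of 2 libraries, in panels by the call between embryo and E14.5 liver (13 lower, 12 not called, 4 higher) and in blue where called lower between the liver stages. The embryo levels were highest in the left panel, at 75.6% or above, and fell to 5.18% in the right panel, while the medians of the 3 panels at E18.5 were 40.1%, 40.0% and 33.7%.

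Mutant and wild-type E10.5 embryos were compared in libraries outside the rule. The median difference over the 29 tiles was 3.25 points, against 1.14 points over all tiles, and the mutant mean was lower in 3 of the 29, against 32.3% of all tiles. Both mutants lay above both wild types in 14 tiles, and 31.5% of all tiles did the same. In mutants 2 tiles were called higher and none lower (edgeR, adjusted p under 0.05 and above 15 points, with 0.374% of all tiles called higher). The first Vps13d tile stood at 42.5% and 45.3% in the wild-type embryos and at 57.0% and 76.5% in the mutants, a difference of 22.9 points (edgeR, adjusted p = 0.0131). The tile in an intron of Cux1, a homeobox gene, at chr5:136879001-136880000, stood at 48.1% and 55.7% against 64.8% and 69.7%, a difference of 15.3 points (edgeR, adjusted p = 0.0334). Neither pair of groups overlapped. The spread between mutant embryos was wide in the Vps13d tile, and neither tile was called without mutant replicate 2 or without wild-type replicate 1. Without wild-type replicate 2 edgeR called 0 of all 574594 tiles, of which 52821 had an unadjusted p under 0.05, so that fit says nothing about these.

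On average the loss was largest inside the tile. Averaged over the tiles, wild type changed by -27.7 points inside the tile, by -2.99 points in the 1 kb before it and by -5.01 points in the 1 kb after it. In the mutants, which did not choose the tiles, the averages were -17.9, -0.93 and -1.95 points. These neighbours include the 2 pairs of adjacent tiles. Without neighbours that met the rule themselves, a choice made after the data were seen, the averages before and after the tile were 0.95 and -0.67 points in mutants and -0.47 and -2.95 points in wild type, so that the direction before the tile turned in mutants. From 2 kb on, every kilobase out to 10 kb to either side had a higher mean at E18.5 in both genotypes, by 1.46 to 5.70 points in mutants and 0.14 to 4.32 points in wild type, over 21 to 27 tiles with at least 3 covered CpGs. At 2 and 3 kb after the tile the wild-type mean rose by 1.23 and 0.14 points, and 11 of 21 and 14 of 25 tiles were lower there at E18.5. In mutants 7 of 21 and 11 of 25 were lower there. In the 1 kb before and after the tile, chosen neighbours included, 11 of 27 and 17 of 26 were lower in wild type. In mutants 10 of 27 and 12 of 26 were. Over all eligible tiles, which held at least 8 covered CpGs, 14.6% were lower in wild type and 12.9% in mutants. The tiles already dipped below their surroundings in the embryos and at E14.5. In the mutant embryos the average was 68.8% inside the tile and 73.3% to 85.8% around it. At E14.5 the mutant average was 58.5% inside the tile and 62.3% to 76.4% around it. At E18.5 the mutant average was 40.6% inside.

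**Figure D4:**
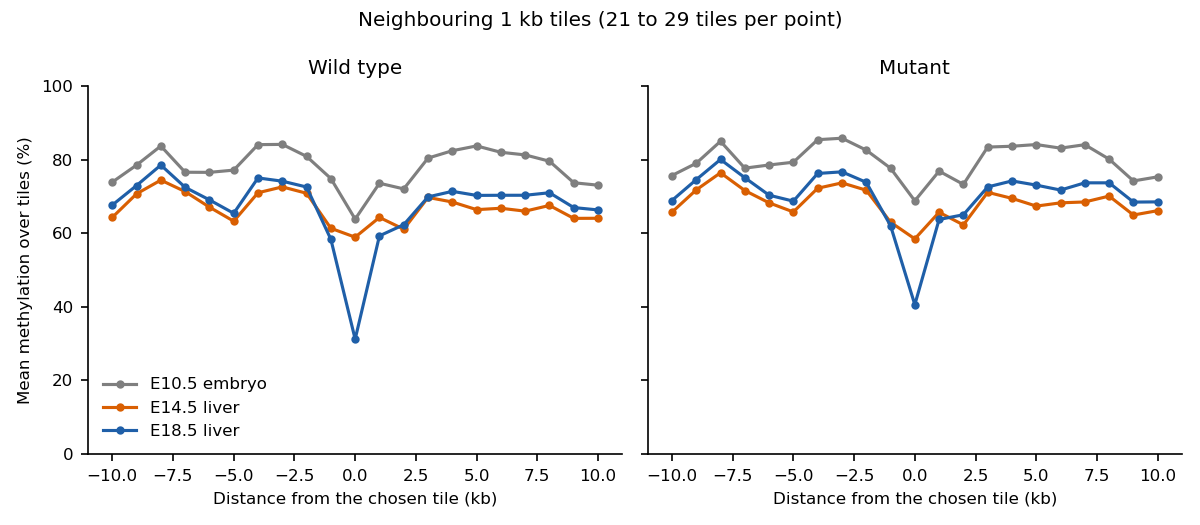
Mean methylation (percent, y axis) of the 1 kb tiles from 10 kb before to 10 kb after the chosen tile (x axis, kb) for the 3 stages in wild type (left) and mutants (right), each point over the 21 to 29 tiles with at least 3 covered CpGs there. The E18.5 line dips to 31.2% in wild type and 40.6% in mutants at the chosen tile, and from 2 kb away it lies above the E14.5 line on both sides.

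The fall was seen at most of the CpGs, though not in every tile alike. The 29 tiles held 409 covered CpGs, and 369 of them (90.2%) had a lower mutant mean at E18.5 than at E14.5, against 26.6% of the 8093388 CpGs of all eligible tiles. Both mutant E18.5 livers lay below both mutant E14.5 livers at 291 of the 409 (71.1%, against 6.87%). The tile at the start of 2810055G20Rik had non-overlapping mutant stages at 17 of its 17 CpGs, Anks1 at 23 of 24, Arid4a at 11 of 12 and the first Arid3a tile at 18 of 22. In Lrpprc it was 4 of 10. It was 3 of 10 in the tile nearest Sod1 and 5 of 11 in that nearest Vmn2r82, both called lower in mutants. In 11 of the 29 tiles every CpG had a lower mutant mean at E18.5. CpGs of a tile share reads and cells and are not replicates.

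**Figure D5:**
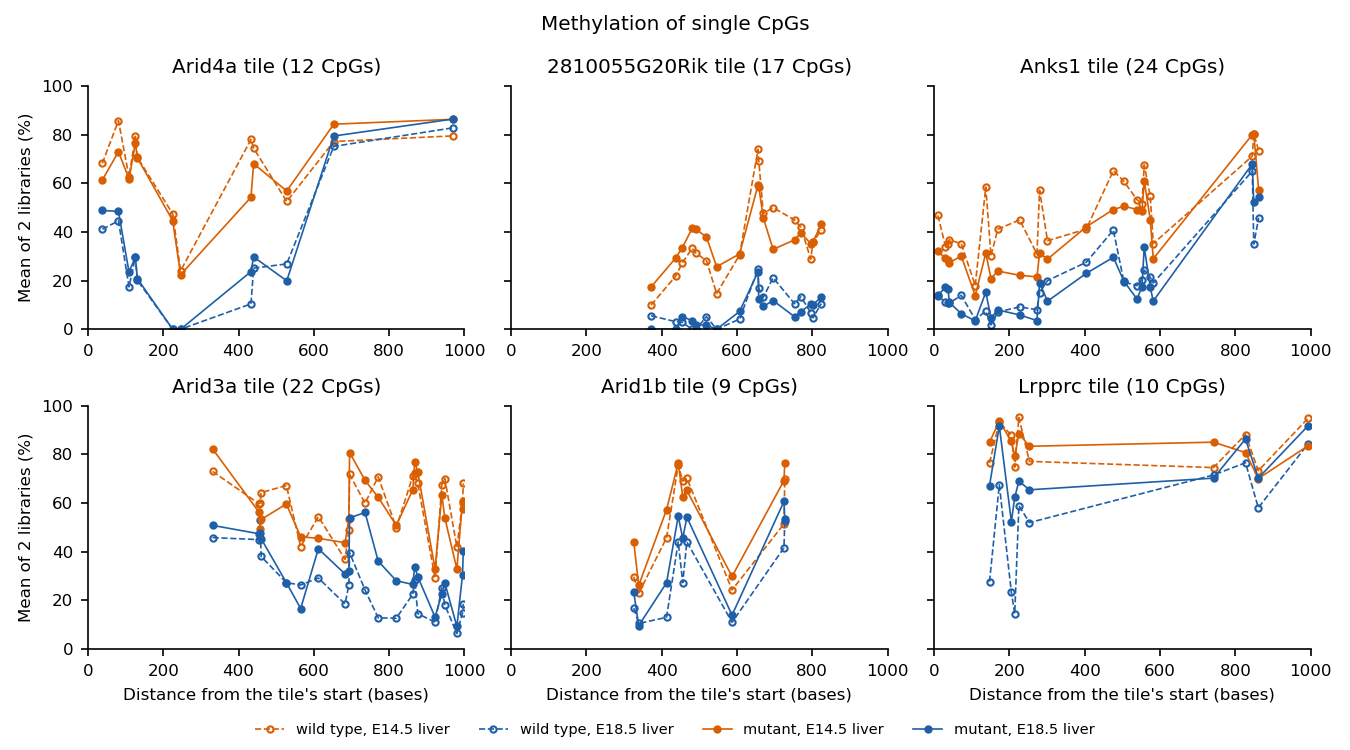
Methylation of single CpGs (mean of 2 libraries, percent, y axis) by distance from the tile's start (bases, x axis) in 6 tiles, with E14.5 liver in orange and E18.5 liver in blue, mutants as solid and wild types as dashed lines. In the Arid4a, 2810055G20Rik, Anks1 and Arid3a tiles the lines of the stages are apart over most of the tile in both genotypes. In the Lrpprc tile the mutant lines are apart over the first part of the tile, except at 1 CpG, and meet or cross towards its end.

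Of the 29 tiles, 23 (79.3%) lay in protein-coding genes, in 21 different genes, against 56.4% of all eligible tiles. By annotation, 18 lay in introns and 6 between genes, 2 overlapped coding sequence (6.90%, against 18.53% of all tiles), 2 overlapped a UTR (6.90%, against 10.6%) and 1, in Ssbp3, overlapped an exon with neither. For 4 (13.8%) the centre was within 2.5 kb of a protein-coding start, against 11.6% of all. The median distance to a start was 25048 bases in these tiles and 25131 bases in all. The tiles held a median of 13 covered CpGs against 11, and their median GC content was 47.7% against 46.9%. With 29 tiles these shares are a description.

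Short motifs of factors that act in liver and blood cells were searched on both strands of each tile. TTGCNNAA, a form of the C/EBP motif, was in 15 tiles (51.7%), against 33.5% of all eligible tiles. For the forkhead factors of the FOXA family, TGTTTGC was in 9 tiles (31.0%, against 18.8%) and TGTTTAC in 4 (13.8%, against 13.3%). The GATA motif AGATAA was in 11 (37.9%, against 40.1%), the AP-1 motif TGANTCA in 9 (31.0%, against 25.99%), the ETS motif CAGGAAGT in 3 (10.3%, against 7.96%) and the KLF motif CCACACCC in 2 (6.90%, against 8.74%). The HNF4A motif CAAAGTCCA and the HNF1 motif GTTAATNAT were in none of the 29 and in 1.38% and 2.26% of all tiles. No motif searched contains another, though matches may share bases, and a match says only that the letters are there.

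None of the tiles lay in, or within 10 kb of, a gene on 9 lists of cell markers, where 1.69% of all eligible tiles lay, so nothing is read from the 0. Within 50 kb of a listed gene lay 3 of the 29 tiles (10.3%), against 3.62% of all. Of these, 1 was at the hepatocyte enzymes and transporters and 2 at the myeloid, megakaryocyte and lymphoid genes. So few tiles are not read as a result either. The lists held 59 hepatocyte plasma protein genes, 77 hepatocyte enzyme and transporter genes, 37 hepatocyte transcription factor genes, 58 erythroid genes, 51 myeloid, megakaryocyte and lymphoid genes, 27 endothelial genes, 29 mesenchymal and stellate genes, 23 biliary and progenitor genes and 28 housekeeping genes. They had 448 to 1682 eligible tiles each, and the widest gap under the rule in any of them was 17.0 points, in the list of myeloid, megakaryocyte and lymphoid genes. Tiles at the listed genes where both mutant E18.5 livers lay below both mutant E14.5 livers made up 5.04% to 10.9% by list, each above the 4.35% of all eligible tiles. The largest of these shares was that of the housekeeping genes. No minimum size was set for these shares, and the median mutant change was a gain in every list, of 2.31 to 5.05 points.

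Expression was measured in E14.5 liver only, so it bears on genotype and not on stage. Rlf itself was at 70.4 ± 1.73 CPM (read counts scaled to a common library total, SD, n = 3) in wild type and 74.6 ± 6.28 CPM in mutants (edgeR, adjusted p = 0.646), a difference that did not pass the test. The libraries held 12928313 to 14621004 counts. As the labelled tissue requires, they were rich in Alb and Afp mRNA, at 26652 and 29804 CPM in wild type, and the erythroid genes Hba-a1 and Klf1 stood at 10326 and 502 CPM. Alb stood at 32166 CPM and Hba-a1 at 8598 CPM in mutants, and neither passed the test (edgeR, adjusted p = 0.151 and 0.483).

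Of the genes with a tile in the body or within 10 kb, 24 could be tested and none differed between the genotypes at an adjusted p under 0.05 by edgeR (over 14183 genes, 0.698% higher and 0.691% lower in mutants). DESeq2 called none either. By edgeR 3 of the 24 had an unadjusted p under 0.05. By DESeq2 3 genes at the tiles had one, and these need not all be among the 24. Of all genes 14.6% had one by edgeR, and 6.58% by DESeq2, which also tested genes of low count, so the 3 are not read as a result. By edgeR they were Arid4a, Elf1 and Lrpprc, whose values follow as a description. Arid4a stood at 48.1, 47.7 and 48.0 CPM in wild type and at 58.7, 50.8 and 54.8 CPM in mutants, a log2 fold change of 0.19 (edgeR, adjusted p = 0.232). Elf1 stood at 53.0, 57.4 and 52.9 CPM and at 60.5, 57.9 and 65.6 CPM (log2 fold change 0.17, edgeR, adjusted p = 0.286), and Lrpprc at 193, 218 and 212 CPM and at 254, 226 and 224 CPM (log2 fold change 0.17, edgeR, adjusted p = 0.302). The log2 fold changes of the 24 genes ran from -0.17 in Dctd to 0.19 in Arid4a.

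The genes at the tiles were mostly expressed. Of the 27 protein-coding genes in the body of which, or within 10 kb of which, a tile lay, 24 (88.9%) passed the filter on low counts, against 58.3% of all autosomal protein-coding genes. The genes compared with were not limited to those with an eligible tile, so these shares are a description. Per kilobase of exon the median of the 24 in wild-type liver was 12.8 CPM, against 7.27 CPM over all that passed. The highest levels were those of Lmnb1, the lamin B1 gene, at 111 CPM per kb, Txnrd1, at 65.1, and Afg3l2, a mitochondrial protease gene, at 58.4. 2810055G20Rik and Eif4e3 did not pass the filter and stood at no more than 0.421 CPM in any library.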

How the data were processed

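The authors aligned bisulphite reads with Bismark and Bowtie2 to mm9 carrying FVB/NJ substitutions, removed duplicates, merged strands and deposited, per CpG, counts of unconverted and converted reads and a rounded percent, which was not used. For RNA-seq the authors deposited unnormalised gene counts from TopHat alignments and HTSeq, which ignored strand. Counts were summed in 1 kb tiles. The tiles were tested with edgeR 4.0.16 in R 4.3.3, with unconverted and converted reads as paired columns and an intercept for each library, for the 6 mutant libraries and for the 4 embryos, with Benjamini-Hochberg adjustment over all tiles. RNA-seq used edgeR with TMM and its default filter, with DESeq2 1.42.0 as the other tool. Annotation was GENCODE vM1. Both scripts were tested on simulated data. Members, lists and tests were chosen with earlier results of these data known. Named tiles are the 12 with the widest gap (1 per 100 kb, none on chromosome 18), those at the limit, and others picked after their values were seen. In RNA-seq, deviations from the group mean were shared by same-numbered libraries (r = 0.125, 0.226 and 0.409 over 14183 genes), which is the only source of a pairing, and replicate 3 is the female of each genotype. In bisulphite libraries r was -0.0223 to 0.0465, with no sign of pairing. The E14.5 bisulphite livers are described as littermates, and the litters of the other samples are not given in the sources used here, so that litter and stage may not be separable. The p-values rest on the spread between these samples, part of which edgeR borrows from all tiles or genes. They do not measure the spread of the libraries in 1 tile or gene alone. Reads of a tile give counting error only.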

Additional observations from a re-analysis of the deposited data

Results flagged for a closer look

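In 3 tiles the mutant and wild-type livers stood apart in opposite directions at the liver stages, with both mutants on one side of both wild types at each stage. In the Foxo3 tile the mutant mean was 6.63 points below wild type at E14.5 (-6.63) and 5.16 points above at E18.5. In the second Arid3a tile, chr10:79400001-79401000, the differences were -5.52 and 3.34 points. In the Eif2c2 tile they were -8.68 and 4.80 points. Over all eligible tiles 1.42% had both mutants below at E14.5 and above at E18.5. The difference between the stages was not tested, because the wild-type livers had chosen the tiles, and a choice of high wild-type values at E14.5 and low ones at E18.5 favours this direction, so nothing is read from it. Groups of 2 or 3 libraries are too small to look for a single library far from the others.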

How the results depend on the processing

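The rule gave 17 tiles with at least 12 CpGs, 120 at a gap of 15 points and 5 at a gap of 30 points. Leaving out 1 wild-type liver gave 47 to 73, since 1 value then stands for a stage. Other coverage minimums, averaging, fewer CpGs and shifted tiles gave 23 to 41. Of the 29 tiles 19 remained eligible at 10 reads per CpG, and of these 12 were called lower between the mutant livers. At 10 reads, 5 were called lower and 4 higher between mutant embryo and E14.5 liver, and 13 were lower and 0 higher between embryo and E18.5 liver. Between the mutant livers 11 tiles were called with a difference above 20 points (54 of all 574594 tiles) and 8 to 19 with 1 library left out, where a lone library is assumed to vary like the others. Leaving out 1 library gave 11 to 14 tiles lower and 2 to 5 higher at E14.5 against the embryo, 20 to 23 lower and 1 higher at E18.5 against the embryo, and 0 to 3 higher in mutant embryos. The median fall between the mutant livers was -14.6 to -20.7 points without 1 library and -24.4 points in the 5 tiles with a gap of 30 points. The Lrpprc tile turned its direction in one setting, to 0.0311 points without mutant E18.5 replicate 2, against -13.8 points without replicate 1. The mean mutant change in the 1 kb before the tiles turned from -0.93 to 0.95 points without neighbours that met the rule, an alternative chosen after seeing the data. For single tiles the other settings gave 41 lost and 4 gained calls among 309 values between the mutant livers.

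With replicate number as a block, the bisulphite counts were 20, 13, 4, 22, 1 and 3 in the order above, where same-numbered libraries share only a number. In RNA-seq the block gave 263 genes higher and 197 lower over all genes, and no call among the genes at the tiles, as under every other setting tried. Depth limits single tiles: the shallowest value, 76.0% from 96 reads in the Irgm1 tile of mutant embryo replicate 1, had a 95% Wilson interval of 66.6% to 83.5%, for counting error only.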

Other observations

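The tiles were unevenly spread over the chromosomes. Chromosome 10 held 6 of the 29 (20.7%), against 5.52% of the eligible tiles, and 14 of the 19 autosomes held at least 1. Of the 6, 3 lay near each other, the tile nearest Vmn2r82 at chr10:78784001-78785000 and the 2 Arid3a tiles, and the Ptbp1 tile just under the limit was at chr10:79320001-79321000. This was noticed after the values were seen and was not tested.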
